A study of Homo sapiens with 2 samples.

Results

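The S100A gene cluster on chromosome 1 was described through the open chromatin peaks of 2 ATAC-seq libraries of SUM159 cells. Its members were 10 listed genes, S100A2, S100A3, S100A4, S100A5, S100A6, S100A8, S100A9, S100A13, S100A14 and S100A16, out of 19970 protein-coding genes annotated in GENCODE on hg38. Peaks were taken when they lay in a listed gene, within 4000 bp of any annotated transcript start of one, or between the genes. By this rule the cluster held 21 of 67868 peaks in No gRNA and 17 of 68238 in All gRNA, counted on chromosomes 1 to 22 and X. They merged into 21 regions. The genes span 273.5 kb, from chr1:153357854 at the S100A9 start to chr1:153631360 at the most upstream start of S100A13, which lies on the minus strand.

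SUM159 is a triple negative breast cancer cell line of the claudin-low type, which has mesenchymal features. Cells of both groups were transduced with pLV, a lentiviral vector for dCas9-KRAB, in which Cas9 without nuclease activity carries the KRAB repressor. In No gRNA the vector had no targeting guide (the empty vector control). In All gRNA it went with 4 guides to the promoter of ZEB1, a repressor that binds E-box sequences. With 1 library of 1 transduced population in each group nothing could be tested between conditions, so p-values are not given and every difference is one between these libraries.

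S100 proteins are small calcium sensors with a pair of EF-hand motifs, and most act as dimers that bind a target protein once calcium is bound. Most of the human genes for them stand side by side in the 1q21 region, next to the genes of the epidermal differentiation complex. Members differ in where they act. S100A8 and S100A9 are secreted by myeloid cells as calprotectin, S100A4 and S100A6 bind cytoskeletal and signalling proteins inside the cell, S100A2 and S100A14 are mostly known from epithelia, and S100A16 is widely expressed.

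Height is given here as the summit pileup, the number of overlapping extended read ends at the highest point of a peak, which was recovered from the fold and the −log10 p that the peak caller wrote. The All gRNA library had 0.743 times the depth of the No gRNA library, and height ratios (All gRNA over No gRNA) are corrected for it. Their intervals are exact 95% counting intervals. Both ends of a fragment could be counted and libraries were not repeated, so these intervals hold counting error alone and are too narrow.

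Before the results, the labels were checked. At the canonical ZEB1 start (within 1000 bp) the No gRNA list had 2 peaks, with a pileup of up to 27, and the All gRNA list had none. All 6 genes of a list of mesenchymal line markers had a peak within 1000 bp of their canonical start in both libraries. Of 6 luminal markers 3 did in both, and ESR1, PGR and EPCAM did in neither. None of 6 myeloid and none of 5 matched keratinocyte markers had one in either library.

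The shared peaks whose height differed by at least 2-fold, the only peak called in All gRNA alone and the No gRNA only peak nearest a listed start are shown for the motifs they hold, with the hg38 plus-strand sequence within 100 bp of their summits. Bases annotated as UTR were left out, and the capitals mark a match to 1 of 6 motifs searched on both strands. These were CAGGTG, the E-box that ZEB1 binds (CACCTG on the other strand), CAGCTG, another E-box, TGANTCA, the AP-1 site, GGAATG, the TEAD site, AACNGGTT, the GRHL site, and an NF-kB site. Matches to different motifs were counted apart, and in 1 cluster peak an AP-1 match and a CAGCTG match overlapped. A match is a description of the letters and not of binding.
Higher in All gRNA, between S100A7 and S100A6, chr1:153527172-153527372: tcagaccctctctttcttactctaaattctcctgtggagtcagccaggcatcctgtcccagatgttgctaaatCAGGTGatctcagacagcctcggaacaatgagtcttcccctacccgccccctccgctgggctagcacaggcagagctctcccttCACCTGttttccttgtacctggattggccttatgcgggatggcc
All gRNA only, chr1:153515980-153516180: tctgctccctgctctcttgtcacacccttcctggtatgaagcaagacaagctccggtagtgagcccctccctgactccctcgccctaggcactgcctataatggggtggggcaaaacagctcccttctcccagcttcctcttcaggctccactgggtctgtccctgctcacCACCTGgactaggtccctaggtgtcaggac
Lower in All gRNA, S100A6 start, chr1:153536245-153536362: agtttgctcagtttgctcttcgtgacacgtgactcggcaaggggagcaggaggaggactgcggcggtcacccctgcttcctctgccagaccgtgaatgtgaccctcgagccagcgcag
Lower in All gRNA, S100A3 start in the first S100A4 intron, chr1:153549425-153549625: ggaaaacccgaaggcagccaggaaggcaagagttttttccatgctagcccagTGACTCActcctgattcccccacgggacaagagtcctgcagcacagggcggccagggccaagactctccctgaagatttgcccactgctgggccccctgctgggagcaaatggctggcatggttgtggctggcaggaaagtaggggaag
No gRNA only, upstream of S100A14, chr1:153617746-153617946: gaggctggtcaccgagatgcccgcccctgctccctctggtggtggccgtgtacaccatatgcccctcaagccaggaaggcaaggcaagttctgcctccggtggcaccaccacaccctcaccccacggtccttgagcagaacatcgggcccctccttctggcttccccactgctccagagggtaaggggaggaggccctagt
The first of these held CAGGTG at 2 places, the All gRNA only peak held it at 1 place, and the S100A3 stretch held 1 AP-1 site. The S100A6 and S100A14 stretches held none of the 6 motifs. Of peaks not printed here, the No gRNA only peak upstream of S100A2 had CAGGTG 62 bp from its summit. A broad intergenic peak that was lower in All gRNA had CAGGTG 65 bp from its No gRNA summit.

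Across the whole cluster, most peaks were found in both libraries, 16 of each list. Of the 21 No gRNA peaks 5 (23.8%) had no overlapping All gRNA peak, against 24.7% of all No gRNA peaks. Of the 17 All gRNA peaks 1 (5.88%) lacked a No gRNA partner, against 23.8% of all All gRNA peaks. The share in No gRNA was close to its background, and the share in All gRNA rests on 1 peak. Peaks covered 8823 bp in No gRNA and 7318 bp in All gRNA, while all peaks covered 27.7 Mb and 25.6 Mb, also less in All gRNA. Cluster peaks were higher than the typical peak, with a median pileup of 35 in No gRNA against 29 in All gRNA, where the medians over all peaks were 19 and 14. These medians were not corrected for depth. Of the cluster peaks, 14 of 21 in No gRNA and 12 of 17 in All gRNA lay within 4000 bp of a listed start. The medians over all peaks took peaks at any place, so greater height is not shown to be particular to this cluster. Median widths of the cluster peaks, 317 and 360 bp, were near those of all peaks, 342 and 317 bp.

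**Figure D1:**
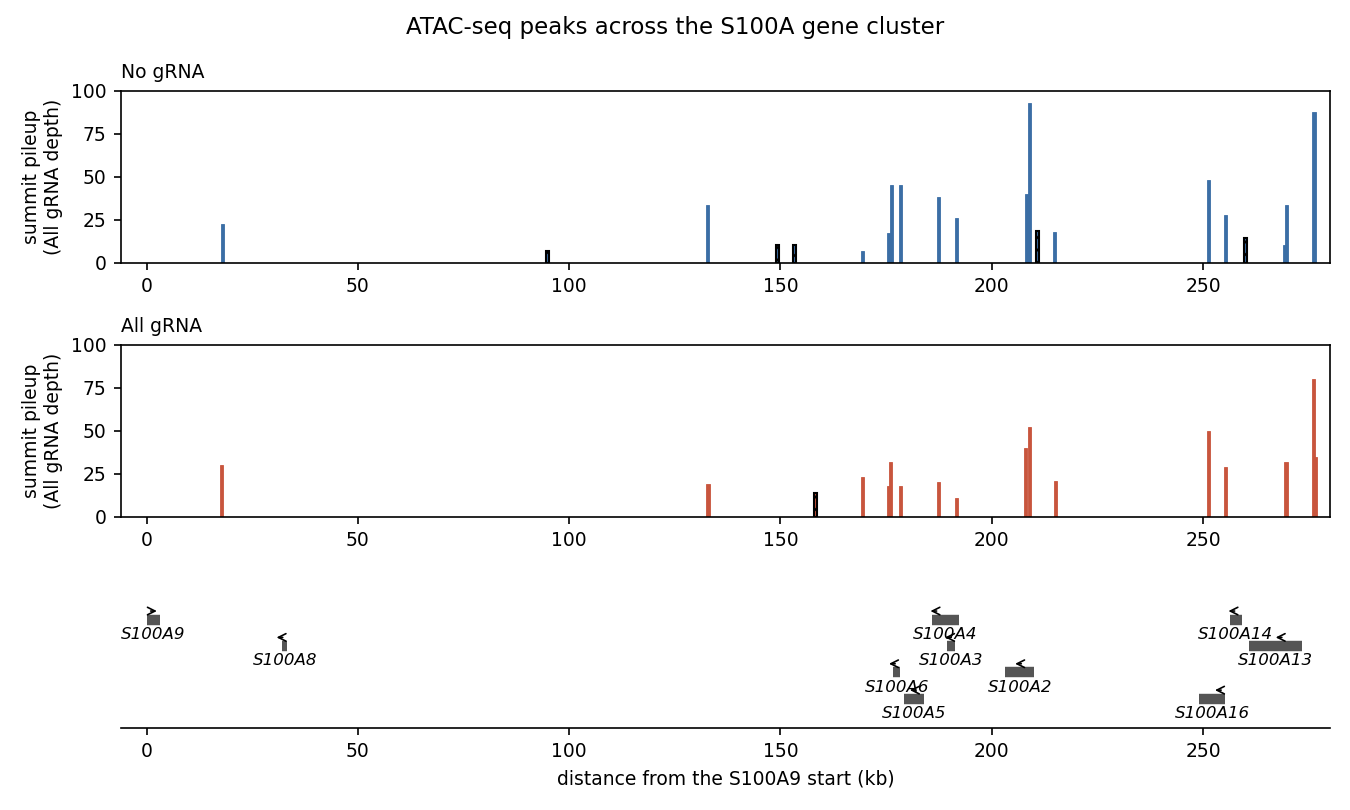
Summit pileup of each peak (vertical axis, reads, with No gRNA scaled to the All gRNA depth) against distance from the S100A9 start in kb, for No gRNA (top) and All gRNA (middle), with the 10 listed genes below and an arrow at each canonical start. Peaks called in 1 library alone have a black outline, 5 in No gRNA and 1 in All gRNA. No peak stands at S100A9 or S100A8, and most stand from S100A6 to S100A2 and from S100A16 to S100A13.

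Of the 10 listed genes 8 had a peak within 4000 bp of a transcript start in No gRNA, against 74.3% of all protein-coding genes, and 8 had one in All gRNA, against 73.9%. The same genes, S100A8 and S100A9, lacked one in both libraries. Counted within 1000 bp of the canonical start alone, 6 genes had a peak in both libraries (S100A6, S100A4, S100A3, S100A2, S100A16 and S100A13), and S100A5, S100A8, S100A9 and S100A14 had none in either. By this count no listed gene differed between the libraries. Within 1000 bp of every annotated start the counts were 7 and 6, since S100A14 had a peak near an upstream start in No gRNA alone.

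S100A8 and S100A9, the calprotectin subunits, had 0 peaks in their gene bodies and 0 within 4000 bp of their starts in either library. The nearest peak to them was at the start of S100A12, another myeloid calgranulin that was not a listed gene, at chr1:153375401-153376045 in No gRNA. Its pileup was 30 in No gRNA against 30 in All gRNA, which gave a ratio of 1.35 (0.784 to 2.31). That interval holds 1. None of the 6 myeloid markers had a start peak either, so the calprotectin genes were without a called peak in cells whose myeloid markers also had none. An uncalled stretch is one below the caller's threshold at this depth, not one shown to be closed.

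A stretch of 143525 bp without a listed gene separates S100A8 from S100A6, and it held most of the peaks that were found in 1 library alone. Peaks called in No gRNA alone lay at chr1:153452588-153452870 with a pileup of 9, at chr1:153506990-153507272 with 14 and at chr1:153511077-153511286 with 14. Their folds over background were 6.05, 7.35 and 7.28 and their −log10 q values 6.37, 9.84 and 9.73. Such weak peaks were often found in 1 library: 54.8% of all No gRNA peaks with a pileup of 9 and 33.9% of those with a pileup of 14 had no partner.

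The All gRNA only peak, at chr1:153516001-153516242, was 242 bp wide with a pileup of 14, a fold of 9.15 and a −log10 q of 12.6. At No gRNA depth its pileup would have been 18.8, while a pileup of 5 would have sufficed for a call there. Among All gRNA peaks with a pileup of 14, 17.3% had no partner. Its summit lay 19911 bp from the canonical S100A6 start, with CAGGTG 74 bp away. In the sequence printed above this is the CACCTG near the right end.

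The highest ratio of the cluster was nearby. At chr1:153527180-153527380 in No gRNA a peak of 201 bp had a pileup of 9, a fold of 6.05 and a −log10 q of 6.37. In All gRNA the peak at the same place, chr1:153527107-153527466, was 360 bp wide with a pileup of 23, a fold of 14.6 and a −log10 q of 25.6. The depth-corrected ratio was 3.44 (1.53 to 8.44), and the width ratio was 1.79. Its summits were 3 bp apart. Its All gRNA summit lay 8719 bp from the canonical S100A6 start. Among shared peaks of like strength (the same of 5 equal classes of summed pileup) this ratio stood at the 99.3 percentile, and it stayed past 2-fold under every scaling tried (2.42 to 3.71). The No gRNA background there was at the genome-wide floor, so the wider surroundings could not be compared. This peak held CAGGTG 24 bp and 60 bp from the All gRNA summit, and was the single cluster peak with at least 2 matches, which 0.989% of all No gRNA and 1.29% of all All gRNA peaks had.

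Another intergenic peak went the other way. At chr1:153490351-153491055 the pileup was 45 in No gRNA against 19 in All gRNA, a ratio of 0.568 (0.314 to 0.991). The summits were 322 bp apart within a peak that was 705 bp wide in No gRNA and 879 bp wide in All gRNA, so the values compare different points of one broad region. CAGGTG stood 65 bp from the No gRNA summit and not within 100 bp of the All gRNA summit.

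S100A6 encodes calcyclin, which binds the ubiquitin ligase adaptor CACYBP and is high in dividing cells. The peak at its start was lower in All gRNA, and in these bulk libraries fewer cells with the site open and less opening per cell cannot be told apart. In No gRNA it covered chr1:153536078-153536443 with a pileup of 61, a fold of 9.17 and a −log10 q of 37.8. In All gRNA it covered chr1:153536003-153536358 with a pileup of 18, a fold of 4.44 and a −log10 q of 6.22. The height ratio was 0.397 (0.221 to 0.681), at the 1.58 percentile of shared peaks of like strength. Its width hardly differed, at 366 and 356 bp, and the summits were 23 bp apart. The summits lay 18 bp and 41 bp from the most upstream of the 3 annotated S100A6 starts.

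On the 3′ side of S100A6, at the start of the lncRNA ENSG00000238279 on the opposite strand, a pair of peaks differed less. At chr1:153533351-153533564 the pileup was 23 in No gRNA against 18 in All gRNA, a ratio of 1.05 (0.536 to 2.04). At chr1:153533761-153534474 it was 61 and 32, a ratio of 0.706 (0.445 to 1.10). Both intervals hold 1, and the latter overlaps that of the S100A6 start.

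S100A4, also called metastasin or fibroblast-specific protein, binds non-muscle myosin and is a common marker of mesenchymal cells. S100A3, a cysteine-rich zinc-binding member known from the hair cuticle, lies in the same 6524 bp, inside the first intron of the longest S100A4 transcript. Each gene had 1 shared peak within 1000 bp of its canonical start, and both were lower in All gRNA. The S100A4 peak, in an S100A4 intron at chr1:153545069-153545520 in No gRNA, had a pileup of 51 in No gRNA against 20 in All gRNA. Its ratio was 0.528 (0.298 to 0.901), and its summit lay 546 bp from the canonical S100A4 start in No gRNA.

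The S100A3 peak, at chr1:153549355-153549671 in No gRNA, had a pileup of 35, a fold of 9.18 and a −log10 q of 23.3. In All gRNA it was narrower, 223 against 317 bp, with a pileup of 11, a fold of 5.41 and a −log10 q of 5.76. The ratio was 0.423 (0.194 to 0.852), at the 3.34 percentile of shared peaks of like strength, and 0.589 when the folds as deposited were divided, which do not pass 2-fold. The summit lay 267 bp before the S100A3 start and within the S100A4 intron, so the peak cannot be given to one of these genes. The S100A5 gene, known from olfactory neurons, had no peak of its own: the S100A4 peak fell within 4000 bp of one of its starts.

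S100A2 is a mainly nuclear member expressed in basal epithelial cells. Its promoter carried 2 shared peaks with different ratios. At the canonical start, chr1:153565804-153566242, the pileup was 54 in No gRNA against 40 in All gRNA, a ratio of 0.997 (0.645 to 1.53). At an upstream start, chr1:153566406-153566980 in No gRNA, stood the peak with the highest No gRNA pileup of the cluster, its summit 920 bp from the canonical start, with 125 in No gRNA against 52 in All gRNA. Its fold was 14.2 against 9.14 and its −log10 q 98.1 against 32.3. The ratio was 0.560 (0.397 to 0.779), with the width at 575 and 397 bp. The intervals of these neighbours overlap between 0.645 and 0.779. A pair of AP-1 sites stood 29 and 67 bp from the No gRNA summit of the upstream peak.

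A further peak upstream of S100A2 was called in No gRNA alone, at chr1:153568614-153568900, with a pileup of 25, a fold of 2.77 and a −log10 q of 3.90. Scaled to the All gRNA depth this is a pileup of 18.6, where 16 would have been called, so an All gRNA peak only slightly lower would have been missed. Beyond it, between S100A2 and S100A16, a shared peak at chr1:153572635-153572906 had pileups of 24 and 21, a ratio of 1.18 (0.623 to 2.21).

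**Figure D2:**
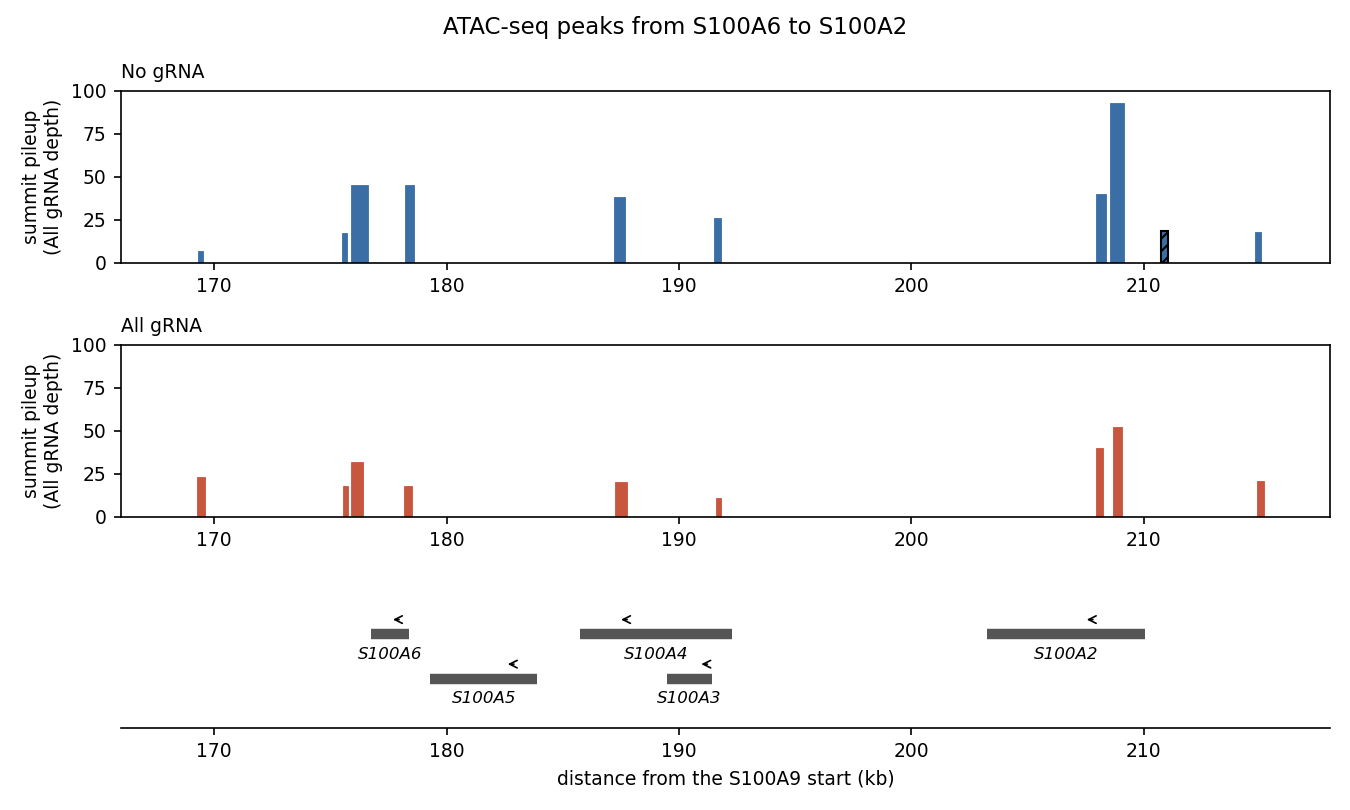
Peaks from S100A6 to S100A2, drawn as in the map of the whole cluster (summit pileup at All gRNA depth against distance from the S100A9 start in kb, each bar as wide as its peak). The bars at the S100A6, S100A4, S100A3 and upstream S100A2 starts are lower in All gRNA, the bar at about 169 kb is higher, and the hatched bar at about 211 kb was called in No gRNA alone.

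From S100A6 to S100A2, a stretch delimited after the values were seen, 6 of 7 shared peaks had a ratio under 1 and the median ratio was 0.560. Among the 6 was the canonical S100A2 start at 0.997, which was 1.07 when scaled by the median of all shared peaks. Since the values led to the choice of this stretch, setting it beside all shared peaks is a description and not a test. The same measure over all 48041 shared peaks with exactly 1 partner had a median of 0.928, and 58.1% of those lay under 1. The read ends in the 10 kb around each summit, which count the background as well as the peak, were also fewer in All gRNA there, with depth-corrected ratios from 0.562 to 0.820. Around the S100A3 peak they numbered 146 in No gRNA against 61 in All gRNA, a ratio of 0.562 (0.410 to 0.763). Over the 37144 shared peaks whose backgrounds lay above the genome-wide floor in both libraries, the median of this ratio was 0.913 and its central 90% ran from 0.616 to 1.47. Peaks of the stretch less than 10 kb apart share these read ends. Whether a regional difference between the libraries has a part in the lower summits was not tested.

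**Figure D3:**
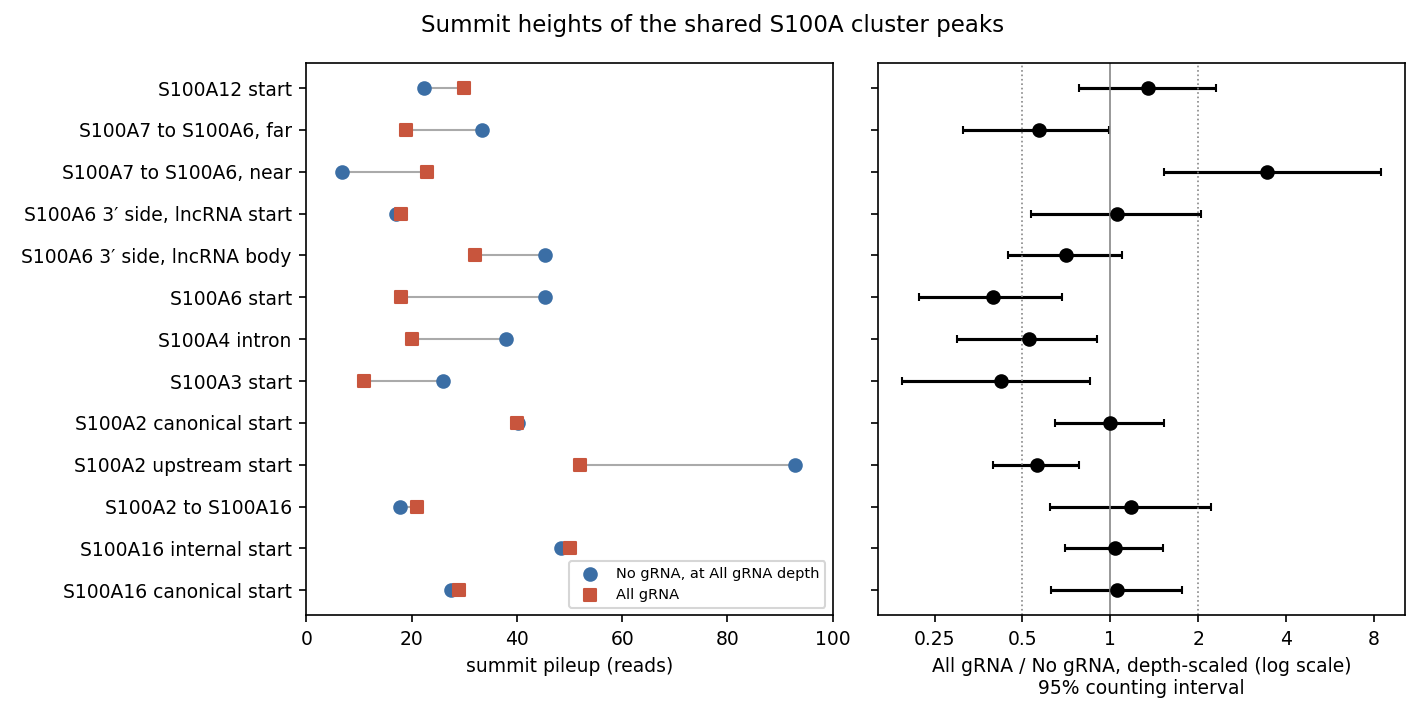
Left, summit pileups of the 13 shared peaks with 1 partner, No gRNA (circles, scaled to All gRNA depth) and All gRNA (squares). Right, the ratio of All gRNA to No gRNA with its exact 95% counting interval on a log scale, with lines at 1 and at 2-fold either way. The intervals of 5 peaks lie below 1, that of 1 peak lies above 1 and those of 7 hold 1.

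S100A16, a widely expressed member, had peaks of nearly equal height in both libraries. Its internal start, at chr1:153608919-153609586, had pileups of 65 and 50, a ratio of 1.04 (0.701 to 1.52). The fold there was 10.5 in No gRNA and 9.96 in All gRNA, and the −log10 q was 44.3 and 33.3. The canonical start, at chr1:153613014-153613253, had pileups of 37 and 29, a ratio of 1.05 (0.626 to 1.76). Widths differed by 13 bp at most.

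S100A14, an epithelial member, had no peak within 1000 bp of its canonical start in either library. A No gRNA peak 1521 bp upstream of that start, at chr1:153617692-153618001, had no All gRNA partner. It was 310 bp wide with a pileup of 19, a fold of 7.52 and a −log10 q of 12.2. Scaled to the All gRNA depth this is a pileup of 14.1, and 6 would have been called there. Of all No gRNA peaks with a pileup of 19, 19.0% had no partner.

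S100A13, which takes part in the non-classical release of FGF1, had open chromatin of like height at its start. In No gRNA this was called as 2 peaks, at chr1:153627060-153627301 with a pileup of 14 and at chr1:153627405-153627907 with a pileup of 45. In All gRNA 1 peak, chr1:153627002-153627914, covered both with a pileup of 32. The ratio of the highest summits, 3 bp apart, was 0.957 (0.589 to 1.54). The S100A1 gene starts on the other strand nearby. At the edge of the cluster, 1 peak of No gRNA with a pileup of 118 and 2 of All gRNA with 80 and 35 lay within 4000 bp of an S100A13 start but at the start of CHTOP, a gene outside the family. Their −log10 q of 111 and 80.3 were the highest of the cluster in each library, and the ratio of the highest summits was 0.912 (0.678 to 1.22).

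Of the 13 shared peaks with exactly 1 partner, 2 (the S100A6 and S100A3 starts) were at least 2-fold lower in All gRNA, against 4.55% of all such peaks, and 1 was at least 2-fold higher, against 4.06%. Among peaks of like strength these shares were larger. They were 5.57% lower for the class of the S100A6 start, 7.36% lower for that of the S100A3 start, and 8.33% higher for that of the higher peak. The counting interval lay below 1 at 5 peaks, against 8.85% of all such peaks, and above 1 at 1 peak, against 3.42%. When ratios were scaled by the median of all shared peaks, 4 intervals lay below 1 against 5.47% of all, and when scaled by the median of peaks of like strength, 3 did against 3.97%. The peaks that lost this place were the broad intergenic one and then the S100A4 one. The median ratio of the 13 was 0.997. Of the 13, 7 were narrower and 6 wider in All gRNA, while 60.7% of all shared peaks were narrower.

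**Figure D4:**
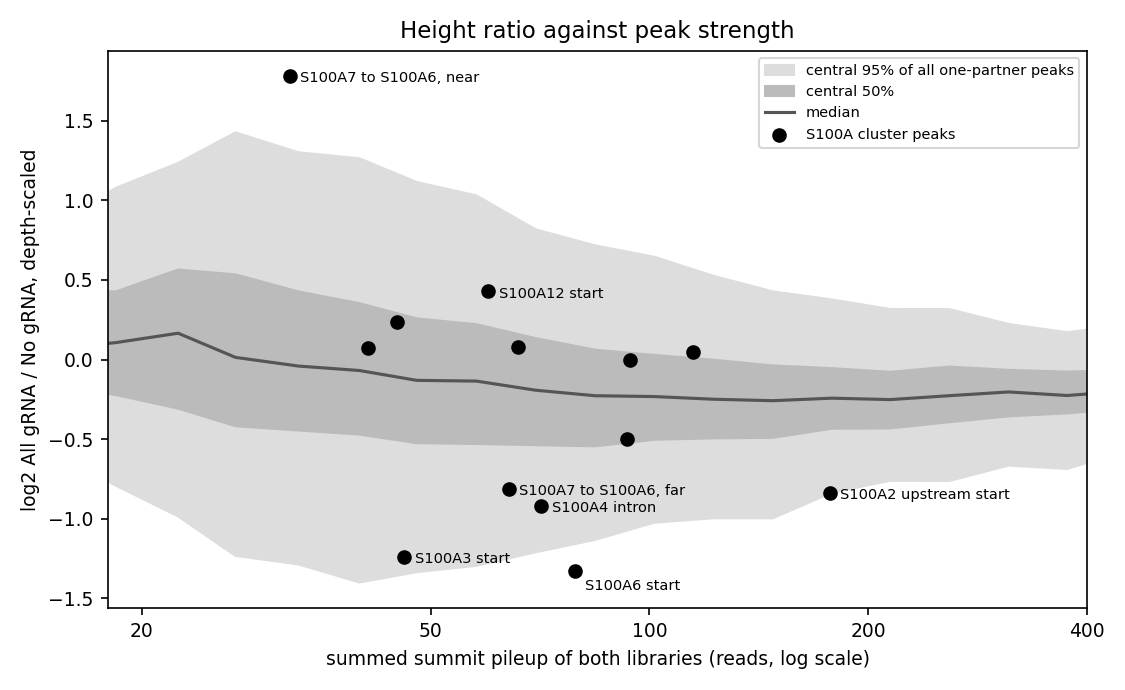
Log2 of the depth-corrected height ratio against the summed pileup of both libraries (log scale), for the 13 cluster peaks (points) over the central 95% (light), central 50% (dark) and median (line) of all 48041 shared peaks with 1 partner. The intergenic peak next to S100A6 lies above the light band, the S100A6 start lies below it, and the S100A3 start and the upstream S100A2 start lie near its lower edge.

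Motifs near the cluster summits were counted beside those of all peaks. CAGGTG was within 100 bp of 3 of 21 No gRNA summits, against 11.6% of all No gRNA peaks, and of 2 of 17 All gRNA summits, against 13.1%. AP-1 sites were within 100 bp of 9 of 21 and 7 of 17, against 30.3% and 31.2%. TEAD sites were near 3 and 1 summits, against 14.6% and 14.1%, and CAGCTG near 4 and 4, against 12.4% and 12.0%. GRHL and NF-kB sites were near none, and each was near 1.22% to 1.38% of all peaks. Over all shared peaks, CAGGTG was looked for within 100 bp of the summit, taken from the library with the higher peak. It was there in 18.8% (17.1 to 20.6) of the 1952 that were at least 2-fold higher in All gRNA. It was there in 8.61% (7.47 to 9.86) of the 2184 that were at least 2-fold lower, and in 11.6% of the rest. The AP-1 site, looked for in the same way, was also more frequent in the higher peaks, at 43.8% (41.59 to 46.04). It was in 34.34% (32.35 to 36.38) of the lower peaks and 31.75% of the rest. CAGCTG was in 11.53% of the higher peaks, 13.92% of the lower and 12.33% of the rest. These 95% intervals treat peaks as independent and hold no variation between libraries, of which each group had 1. In the cluster CAGGTG was near the summit of the 1 peak past 2-fold higher and of neither peak past 2-fold lower. Among peaks called in 1 library alone, it was near the All gRNA only summit. It was also 62 bp from the summit of the No gRNA only peak upstream of S100A2, so it was found on both sides.

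In the RefSeq promoter windows (250 bp before to 50 bp after a start, GRCh38.p14), all 10 listed genes were matched, with 17 windows. CAGGTG was in a window of 7 of them, S100A2, S100A4, S100A5, S100A8, S100A9, S100A14 and S100A16, against 24.1% of 27305 genes, and in 10 of the 17 windows against 20.6% of 35116. Some windows of a gene overlap, and listed genes had more windows each. Only 1 of the 9 matched places, downstream of the internal S100A16 start, lay in a called peak, and it did so in both libraries. The windows of S100A3, S100A6 and S100A13 held none. The upstream matches at the calprotectin gene S100A9, the mesenchymal marker S100A4 and the widely expressed S100A16 are shown on the hg38 plus strand, with the match in capitals.
S100A9, 92 bp before the start, chr1:153357742-153357787: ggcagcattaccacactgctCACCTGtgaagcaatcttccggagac
S100A4, 164 bp before the start, chr1:153545945-153545990: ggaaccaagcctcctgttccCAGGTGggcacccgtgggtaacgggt
S100A16, 178 bp before the start, chr1:153613290-153613335: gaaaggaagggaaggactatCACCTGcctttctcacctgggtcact
The S100A16 stretch holds a second CACCTG, left in lower case, 191 bp before the start.

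Other S100 genes and partners of S100 proteins were taken as lists. Of 12 further S100 names 11 matched a protein-coding gene, and 6 of these had a promoter peak (within 4000 bp of any start) in both libraries, 4 in neither and 1, S100Z, in All gRNA alone. The 6 include S100PBP, the gene of an S100P binding protein rather than of an S100 protein. Over all protein-coding genes 74.3% had one in No gRNA and 73.9% in All gRNA. The S100Z peak, at chr5:76875542-76875741, had a pileup of 6 and a fold of 4.72 and lay 329 bp from an alternative start. All 12 genes of a list of receptors and binding partners had a promoter peak in both libraries, against the same shares. Among the 10 with a shared peak at the canonical start, 2 were past 2-fold, both lower in All gRNA, where 4.55% of all shared peaks were as much lower and 4.06% as much higher. ANXA2, the annexin that binds S100A10, had pileups of 78 and 24 at chr15:60397978-60398343, a ratio of 0.414 (0.251 to 0.662). ANXA6, an annexin that binds S100A6, had 54 and 19 at chr5:151157531-151158033, a ratio of 0.473 (0.265 to 0.812). The other 8 ratios ran from 0.811 to 1.18, and each of their intervals holds 1. At the canonical starts of further S100 genes, 3 shared peaks had ratios from 1.00 to 1.35, with intervals that hold 1.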

How the data were processed

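ATAC-seq was measured in 1 library per group. The authors used fastp for trimming and bowtie2 for mapping to hg38, left out mitochondrial, excluded and duplicate reads, and ran MACS2 on the libraries separately, with no control library; tool versions are not given in the sources used here. The deposited lists give each peak's fold over the local background (a ratio), its −log10 p and −log10 q, a score (not used) and the summit offset, another deposited column. They hold no read totals. Summit pileup and background were solved from the fold and −log10 p (largest error in −log10 p 0.0042). On 20000 peaks simulated with the same equations 100% of pileups were recovered, which checks the solving and not the caller's own pileups. The lists follow a pileup window of 200 bp, not the stated 150 bp, which leaves ratios unchanged. The lowest backgrounds, 0.651816 in No gRNA and 0.484375 in All gRNA, gave the depth ratio. Local backgrounds above them gave the read ends in 10000 bp.

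Peaks on sequences other than chromosomes 1 to 22 and X were left out (67868 of 74757 and 68238 of 75217 were kept). Genes came from GENCODE release 44. Shared peaks overlapped by at least 1 bp, and heights were compared for peaks with exactly 1 partner. The peaks given in full were those nearest a canonical start, past 2-fold, in 1 library alone or among the 3 strongest cluster peaks of either library. Others were to be given by counts and ranges, but in this cluster each was also given with its pileups. Members, lists and the naming rule were chosen with earlier results of these data known. Python 3.11.15, numpy 2.4.6, pandas 2.3.3, scipy 1.17.1 and matplotlib 3.10.9 were used.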

Additional observations from a re-analysis of the deposited data

How the results depend on the processing

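Of 112 alternative values, 87 were counted as the same, 18 as moved and 7 as reversed. Values counted as the same could still differ in size. The log2 ratio at the S100A12 start was 1 of them, at 0.43 and, by the ratio of folds, 0.028. At a −log10 q of at least 10 the cluster held 14 peaks in No gRNA and 14 in All gRNA, so the difference in their number was gone. The peaks called in 1 library alone became 3 in No gRNA and 2 in All gRNA at that cutoff. They became 7 in No gRNA and 3 in All gRNA when overlap had to reach 50% of both peaks. The counts were also 7 and 3 when summits had to lie within 150 bp. Shared peaks at least 2-fold lower became 1 by the ratio of folds (the S100A3 start no longer passed) and 5 at 1.5-fold. The median log2 ratio of the 13 shared peaks, −0.0046, reversed to 0.10 when scaled by the median of all shared peaks and to 0.17 when scaled by peaks of like strength. The peak at the canonical S100A2 start, also −0.0046, reversed to 0.10, 0.23 and, by the ratio of folds, 0.19. By the ratio of folds the peak between S100A2 and S100A16 reversed to −0.13 and that at the internal S100A16 start to −0.082. The log2 values that reversed had lain from −0.0046 to 0.24. Both scalings subtract a median log2 ratio from each value, which was −0.11 over all shared peaks. Why the ratio of folds differed was not tested. The S100A6, S100A3, S100A4 and upstream S100A2 peaks stayed lower, and the intergenic peak next to S100A6 stayed higher, under all 3 alternatives. The motif counts moved with the width searched. Alternatives with the read ends in 10 kb (median log2 −0.34) and with merged regions (−0.06) were chosen after seeing the data. With 1 library per group, variation between cultures could not be measured, and peaks below the caller's threshold were not seen. No paired analysis was possible because neither group had a second library.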
